A study of Mus musculus with 24 samples.

Results

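The collagen genes are the genes that encode the alpha chains of collagen. On these arrays they were taken as every gene whose printed name on the array consists of Col, a type number, the letter a and a chain number. The array lists 40 such genes among 27962 gene names, and measures them with 78 of its 41174 probes. A gene is represented below by the brightest of its probes, chosen by the mean signal over all 24 arrays, and 12 of the 40 genes have a single probe. A gene entered the tests of a set of arrays when some group of that set had its probe well above background on all of its arrays, which held for 33 of the 40 genes in the first set and for 36 in the second. Col4a3 and Col15a1 were tested in neither set. Col9a1, Col10a1, Col13a1, Col14a1 and Col19a1 were tested in the second set only, and Col24a1 and Col28a1 in the first only.

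Collagens are the main structural proteins of the extracellular matrix, and fibroblasts are their best-known source. Each molecule is a triple helix of alpha chains that is assembled and modified in the endoplasmic reticulum, secreted as procollagen, trimmed of its propeptides and then cross-linked outside the cell. Fibrillar types such as I, III and V build the fibres of connective tissue, type IV forms the network of basement membranes, type VI forms beaded filaments around cells, and the FACIT collagens (fibril-associated collagens with interrupted triple helices) attach to the surface of fibrils.

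All samples are immortalized mouse embryonic fibroblasts that lack Ku70 (gene Xrcc6), a DNA end-binding protein of double-strand break repair, so the untreated controls carry the deletion as well. In the first set of 15 arrays, 3 arrays each held untreated control cells, KBrO3-only cells at 4 and 24 hr, and co-exposed cells at 4 and 24 hr. KBrO3 (potassium bromate) is an oxidizing agent that damages DNA bases. KBrO3-only cells received 20 mM KBrO3 for 1 hr and were then left to repair for 3 or 23 hr. Co-exposed cells were given 150 μM bisphenol A (BPA), an estrogenic plastics chemical, for 1 hr, then both agents for 1 hr, and BPA alone during the 3 or 23 hr of repair. The second set of 9 arrays held 3 untreated controls of its own, with no time stated, and 3 arrays each of BPA-only cells labelled 4 and 24 hr, at 150 μM. The study's methods count these times from the start of KBrO3 in parallel groups, and BPA-only exposures were 1 hr longer. The control titles of the first set carry the number 4, so no control of that set is labelled with 24 hr, and its controls served both times. The cells are 1 knockout line, and no line with intact Ku70 was analysed here.

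Levels are log2 signals relative to the 75th percentile of the same array, so a difference of 1 is a 2-fold difference, and levels of different probes are not compared. A gene was called altered when limma gave a fold change above 1.5 with a p below 0.01 after Bonferroni adjustment across every probe in the test. Between 57.7% and 68.1% of spots were well above background on arrays of the first set and 76.4% to 79.4% on those of the second, and 27 of the 40 collagen genes were well above background on all 24 arrays. No collagen probe was saturated. The 9 fibroblast markers on the array (Vim, Pdgfra, Pdgfrb, Thy1, S100a4, Fbln1, Fbln2, Twist1 and Prrx1) were well above background on all 3 control arrays of both sets. Markers of 4 other cell types had low signals: the summed level was at most 0.492 for epithelial, 0.216 for endothelial, 0.75 for hematopoietic and 0.0884 for skeletal muscle markers on any array, in units of the 75th percentile. On all 3 control arrays of the first set, 1 of 5 epithelial, 2 of 4 endothelial, 2 of 4 hematopoietic and 0 of 3 skeletal muscle markers were above background, and on those of the second set 3 of 5, 3 of 4, 3 of 4 and 2 of 3 were. Cldn4 (epithelial), Pecam1 (endothelial), Ptprc (hematopoietic) and Actn2 (skeletal muscle) were above background on no control array. Chondrocyte markers were brighter, with summed levels from 0.926 to 6.31, and are given beside Col2a1 and the 4 hr results. The hematopoietic sum was 0.207 to 0.238 in the controls of the first set, 0.694 to 0.75 and 0.514 to 0.52 at 4 hr, and 0.347 to 0.362 and 0.466 to 0.533 at 24 hr, after KBrO3 alone and in co-exposed cells, and 1 of 2 tested hematopoietic markers was called higher in each of these groups. Of 2 tested endothelial markers, 1 was called higher in both treatments at 4 hr and after KBrO3 alone at 24 hr. The part of these markers in the collagen results was not tested. The Xrcc6 probe was above background on all arrays, and since its position relative to the deletion is not given it does not check the genotype.

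The promoters of 4 collagen genes are shown for chains that fell together at 24 hr, as described next: Col1a2 of type I, Col3a1 of type III, Col5a1 of type V and Col6a3 of type VI. Each is the 250 bases before the annotated start of the gene in RefSeq (assembly GRCm38.p6), read 5′ to 3′ on the gene's strand, at chr6:4505368-4505617 (plus strand) for Col1a2, chr1:45311288-45311537 (plus strand) for Col3a1, chr2:27886175-27886424 (plus strand) for Col5a1 and chr1:90843972-90844221 (minus strand) for Col6a3. Capitals mark the letters of 3 core promoter motifs on either strand, the CCAAT box (CCAAT or ATTGG), the TATA box (TATAAA or TTTATA) and the GC box (GGGCGG or CCGCCC).
Col1a2: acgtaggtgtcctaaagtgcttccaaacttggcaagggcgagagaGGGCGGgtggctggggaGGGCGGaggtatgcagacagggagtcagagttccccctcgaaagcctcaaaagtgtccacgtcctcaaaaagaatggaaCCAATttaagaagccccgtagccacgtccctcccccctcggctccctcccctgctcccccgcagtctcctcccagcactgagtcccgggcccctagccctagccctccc
Col3a1: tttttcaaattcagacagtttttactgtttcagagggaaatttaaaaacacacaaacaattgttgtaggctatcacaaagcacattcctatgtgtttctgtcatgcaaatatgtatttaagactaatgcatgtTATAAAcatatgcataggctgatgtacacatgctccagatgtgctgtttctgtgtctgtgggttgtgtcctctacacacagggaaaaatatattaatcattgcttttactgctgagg
Col5a1: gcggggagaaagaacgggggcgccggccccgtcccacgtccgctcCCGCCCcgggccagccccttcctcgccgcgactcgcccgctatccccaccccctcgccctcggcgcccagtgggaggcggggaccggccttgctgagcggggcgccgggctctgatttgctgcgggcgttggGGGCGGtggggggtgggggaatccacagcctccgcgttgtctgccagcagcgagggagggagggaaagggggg
Col6a3: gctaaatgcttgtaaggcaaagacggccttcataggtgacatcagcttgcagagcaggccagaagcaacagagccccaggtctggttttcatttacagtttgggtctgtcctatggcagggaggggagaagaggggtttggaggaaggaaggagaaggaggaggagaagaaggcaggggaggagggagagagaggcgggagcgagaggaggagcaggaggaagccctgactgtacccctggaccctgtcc
The Col1a2 window holds CCAAT 109 bases before the start and GGGCGG 205 and 188 bases before it. The Col3a1 window holds TATAAA 117 bases before the start, the Col5a1 window holds the GC box 205 and 73 bases before it, and none of these letters occur in the Col6a3 window. Among the promoters of the 32 collagen genes with an entry (35 windows, overlapping matches included), CCAAT was in 12 (34.3%), TATAAA in 5 (14.3%) and GGGCGG in 19 (54.3%). The shares among all 32851 promoter windows of the same length were 33.8%, 12.4% and 32.7%. Col1a1, Col5a2 and Col12a1 are among the genes without an entry.

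At 24 hr most collagen transcripts were lower than in the controls, and no tested collagen gene was called higher by limma with Bonferroni adjustment. At an unadjusted p below 0.05, for which no share of all genes is given, 3 were higher after KBrO3 alone and 4 in co-exposed cells. A Benjamini-Hochberg adjusted p below 0.05 with a fold above 1.5 called 1 gene higher in each, beside 12.5% and 14.6% of all genes. That gene was Col9a3, a FACIT chain, whose difference turned negative with normexp background correction (−1.12 and −0.84). After KBrO3 alone, 16 of 33 tested collagen genes fell, whereas 10.7% of the 18445 genes tested on the array fell and 7.09% rose. In co-exposed cells at 24 hr, 19 of 33 fell, against 12% of all genes that fell and 9.49% that rose. The median log2 difference over the 33 collagen genes was −1.09 after KBrO3 alone, beside −0.069 over all genes, and 27 of the 33 lay below 0. In co-exposed cells the median was −1.64, beside −0.11 over all genes, and 29 of 33 lay below 0. Median scaling left 13 and 16 of the 33 genes called lower, with collagen medians of −0.94 and −1.33, beside 0.079 and 0.21 over all genes. Over all genes it left 1134 and 1187 called lower, in place of 1975 and 2218. Normexp background correction left 6 and 12 called lower, beside 536 and 696 of all genes. Fits of the 6 arrays compared left 7 and 10, beside 393 and 534 of all genes. With the genes that were below background on all co-exposed arrays set to the bound on their fall, the co-exposed median was −1.07. Col24a1 entered these tests only through the controls, so a fall was the only change it could show, and without it 15 and 18 of 32 genes fell, with medians of −0.90 and −1.64. Both comparisons share the same 3 control arrays. No control array shared a slide with any 24 hr array, so no difference within a slide can be given there. With slide as a random block, 14 and 18 of the 33 genes were called lower, beside 1377 and 1573 of all genes. The fibroblast markers fell as well: their summed level (linear signal relative to the 75th percentile) was 810 to 881 on control arrays, 397 to 459 after KBrO3 alone and 260 to 314 in co-exposed cells at 24 hr. Of the 9 markers, 5 and 7 were called lower in these groups, and Thy1 was above background on no co-exposed array at 24 hr. The part of this in the collagen result was not tested, and in bulk RNA fewer cells of a type and less RNA per cell cannot be told apart.

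**Figure D1:**
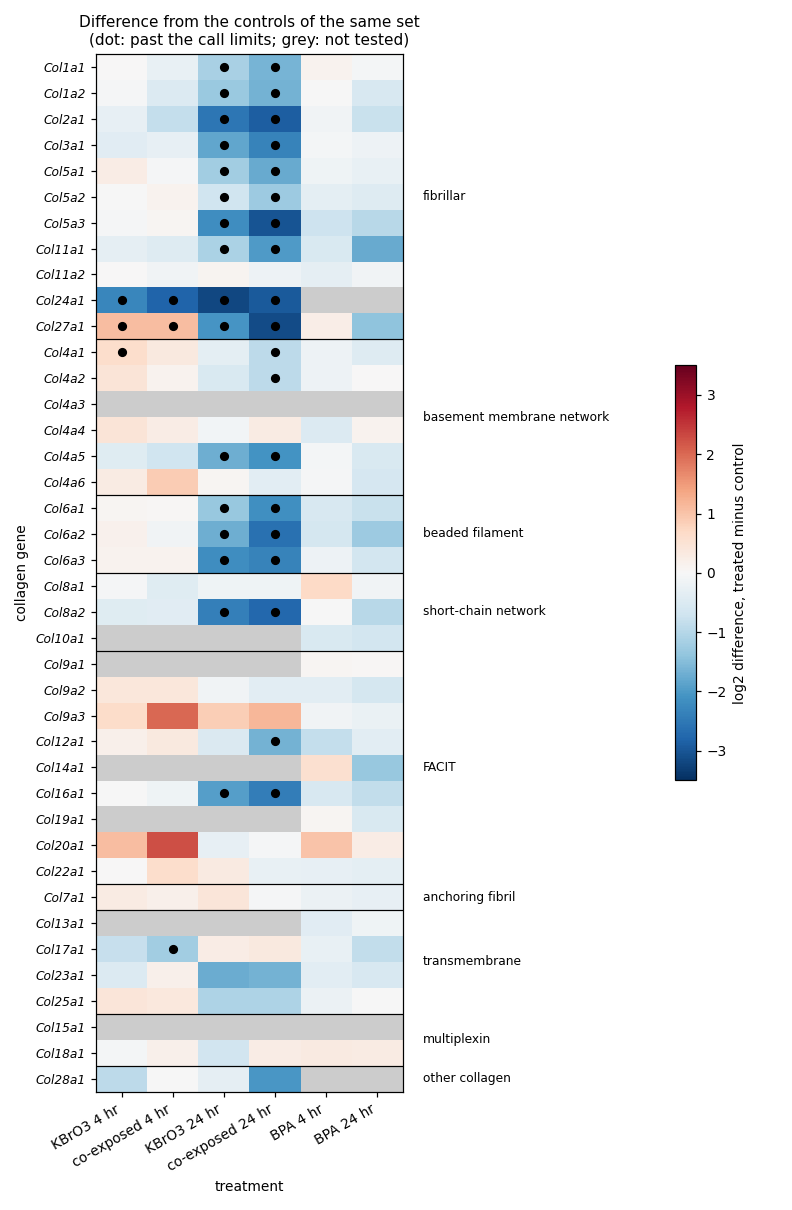
Log2 difference of each of the 40 collagen genes (rows, grouped by structural class) from the controls of the same set, for 6 treatments (columns); blue is lower, red is higher, a dot marks a called difference and grey marks a gene not tested in that set. The 16 and 19 dots in the KBrO3 24 hr and co-exposed 24 hr columns all sit on blue cells, and most lie in the fibrillar and beaded filament classes.

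The fall at 24 hr took in nearly the whole fibrillar class. Of 11 fibrillar genes, 10 fell after KBrO3 alone and 10 fell in co-exposed cells, and Col11a2 was the exception in both. These counts include Col24a1, which could only fall, and without it 9 of 10 fell in each. The class medians were −1.29 and −1.98 on the log2 scale. With Col24a1 at the bound on its fall the co-exposed median was −1.76. Col1a1 and Col1a2 encode the chains of type I collagen, the main fibrillar collagen of skin, bone and tendon. Col1a1 stood at 7.70, 7.59 and 7.79 on the 3 control arrays, at 6.55, 6.52 and 6.59 after KBrO3 alone at 24 hr and at 6.08, 6.11 and 6.01 in co-exposed cells at 24 hr. All 6 treated arrays lay below the controls, and the co-exposed arrays were the lowest. The difference from the controls was −1.15 ± 0.06 (SE, n = 3 per group) after KBrO3 alone (Bonferroni-adjusted p = 1.06e-05, limma) and −1.63 ± 0.06 in co-exposed cells (Bonferroni-adjusted p = 1.96e-07, limma). The probe of Col1a1 is printed 10 times on each array, and the SD between these spots had a median of 0.046 over the arrays, which is technical spread within an array only.

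For Col1a2 the levels were 8.48, 8.52 and 8.62 in controls, 7.16, 7.23 and 7.35 after KBrO3 alone and 7.03, 7.01 and 6.65 in co-exposed cells at 24 hr. The 3 groups did not overlap, and 1 co-exposed array lay clearly below the other two. Col1a2 fell 2.45-fold after KBrO3 alone (log2 difference −1.29 ± 0.09, Bonferroni-adjusted p = 2.63e-04, limma) and 3.13-fold in co-exposed cells (−1.65 ± 0.09, Bonferroni-adjusted p = 1.80e-05). The first of these calls was lost when arrays were scaled to their median in place of the 75th percentile (Bonferroni-adjusted p = 0.0122). The chain of type III collagen, which forms fine fibres and is found together with type I, is encoded by Col3a1. Its levels were 7.35, 7.36 and 7.39 in controls, 5.47, 5.63 and 5.59 after KBrO3 alone and 5.07, 4.91 and 5.14 in co-exposed cells at 24 hr. All treated arrays were below all controls, with a difference of −1.81 ± 0.065 after KBrO3 alone (Bonferroni-adjusted p = 1.70e-07, limma) and −2.33 ± 0.065 in co-exposed cells (Bonferroni-adjusted p = 9.25e-09).

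**Figure D2:**
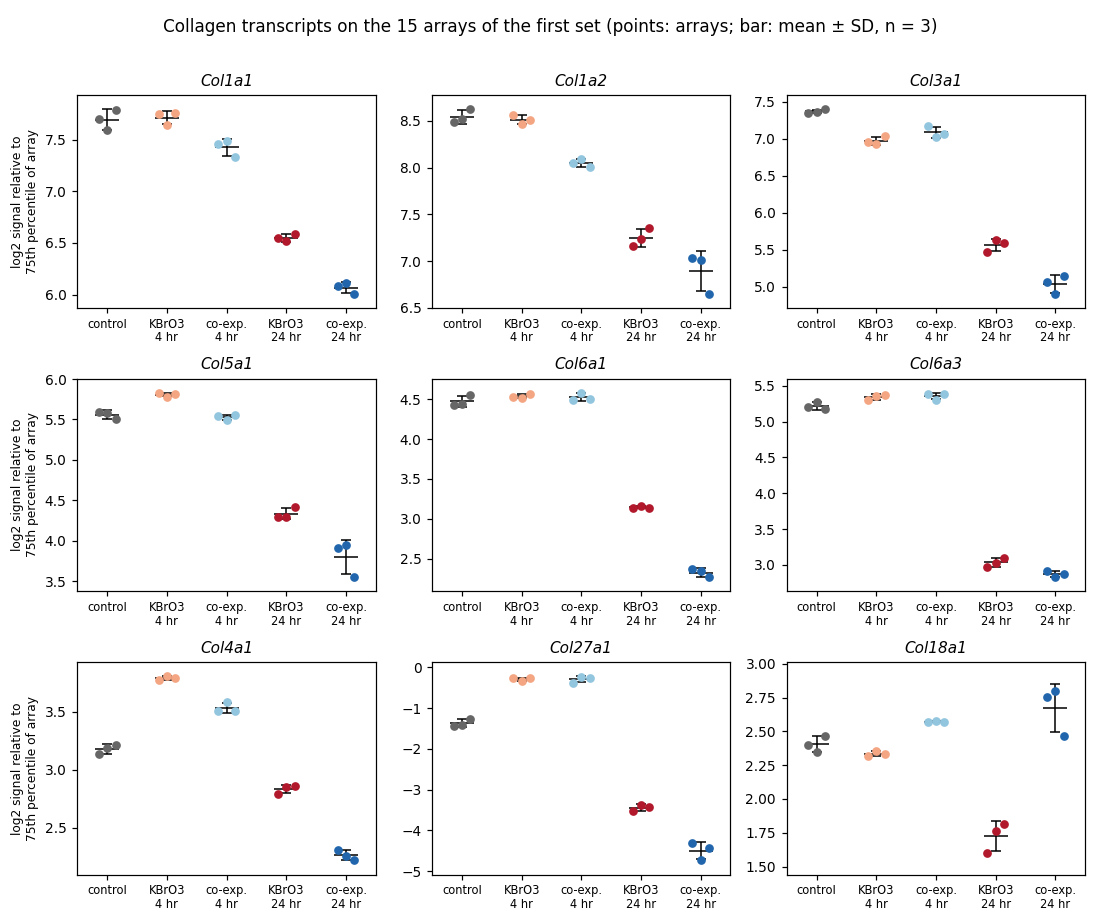
Log2 level relative to the 75th percentile of the array for 9 collagen genes in the 5 groups of the first set (each point is 1 array; bars give mean ± SD, n = 3). Each panel has its own vertical axis; in the panels of Col1a1, Col1a2, Col3a1, Col5a1, Col6a1 and Col6a3 both 24 hr groups sit below all other groups, Col27a1 is high at 4 hr and low at 24 hr, and Col18a1 is low only after KBrO3 alone at 24 hr.

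Type V collagen sits inside type I fibrils and limits their diameter. Of its 3 chains, Col5a1 was at 5.60, 5.58 and 5.50 in controls, 4.30, 4.30 and 4.41 after KBrO3 alone and 3.91, 3.94 and 3.55 in co-exposed cells at 24 hr. The groups were separate, with differences from the controls of −1.22 ± 0.084 (Bonferroni-adjusted p = 2.34e-04, limma) and −1.76 ± 0.084 (Bonferroni-adjusted p = 4.00e-06). The KBrO3-only call was lost with median scaling (Bonferroni-adjusted p = 0.0203). Col5a2 had the smallest called fall of the fibrillar class, leaving aside Col24a1, which is known only by a bound. It was at 4.06, 4.03 and 4.21 in controls, 3.29, 3.37 and 3.52 after KBrO3 alone and 2.89, 2.79 and 2.80 in co-exposed cells. These groups did not overlap either, and the differences were −0.70 ± 0.064 (Bonferroni-adjusted p = 0.00456, limma) and −1.27 ± 0.064 (Bonferroni-adjusted p = 6.85e-06). The KBrO3-only call of Col5a2 was lost with quantile normalization and with median scaling, and on leaving out any 1 of the 15 arrays except KBrO3-only replicate 3 at 24 hr (Bonferroni-adjusted p between 0.0104 and 0.0544, limma). The co-exposed call was lost with median scaling (Bonferroni-adjusted p = 0.0117). Col5a3 fell much further, from 2.83, 2.75 and 2.71 in controls to 0.62, 0.56 and 0.57 after KBrO3 alone and −0.12, −0.15 and −0.48 in co-exposed cells. No treated array came near the controls, and the fall was 4.52-fold (Bonferroni-adjusted p = 2.68e-07, limma) and 8.05-fold (Bonferroni-adjusted p = 6.56e-09).

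Among the lesser fibrillar collagens, Col2a1 and Col11a1 encode chains of the fibrils of cartilage. Col2a1 was at 3.09, 3.05 and 3.22 in controls, 0.67, 0.56 and 0.52 after KBrO3 alone and 0.11, 0.10 and 0.50 in co-exposed cells at 24 hr. Its differences from the controls were −2.54 ± 0.098 and −2.88 ± 0.098 on the log2 scale (Bonferroni-adjusted p = 3.43e-07 and 8.01e-08, limma), and its treated arrays all lay below the controls while the KBrO3-only and co-exposed arrays did not overlap. A further Col2a1 probe, placed 20 bases away, gave smaller differences of −0.88 and −0.81 that were not called. The summed level of the chondrocyte markers Acan, Sox9, Matn1 and Comp was 1.57 to 1.71 in controls, 0.926 to 0.962 after KBrO3 alone and 1.05 to 1.34 in co-exposed cells at 24 hr, and Matn1 was not above background on any array. Its part in the Col2a1 result was not tested. Col11a1 was at 0.23, 0.23 and 0.29 in controls, −0.93, −0.77 and −0.84 after KBrO3 alone and −1.76, −1.71 and −1.73 in co-exposed cells. Its 3 groups were well apart, with differences of −1.10 ± 0.044 (Bonferroni-adjusted p = 4.75e-07, limma) and −1.98 ± 0.044 (Bonferroni-adjusted p = 5.37e-10).

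Col24a1 and Col27a1 encode fibrillar chains known from developing bone and cartilage. The levels of Col24a1 were −4.21, −4.28 and −4.42 in controls, −7.70, −7.48 and −7.29 after KBrO3 alone and −7.30, −7.07 and −7.39 in co-exposed cells at 24 hr. The probe was well above background on all control arrays and on none of the treated arrays, so only bounds can be given: the drop in Col24a1 was at least 2.45-fold with KBrO3 alone and at least 1.94-fold with both agents. The gene was tested only because its probe passed on the controls, so its calls at 4 and 24 hr are no independent test of a fall. These bounds set the mean of the controls against the dimmest signal that counts as above background on each treated array. Col27a1 was at −1.44, −1.41 and −1.26 in controls, −3.53, −3.38 and −3.42 after KBrO3 alone and −4.31, −4.74 and −4.44 in co-exposed cells at 24 hr. It fell 4.21-fold after KBrO3 alone (Bonferroni-adjusted p = 2.24e-06, limma) and 8.73-fold in co-exposed cells (Bonferroni-adjusted p = 2.09e-08), where 2 of the 3 arrays were above background. Its 2 other probes were also called lower in both groups, although they were above background on 0 and 1 of the 3 co-exposed arrays.

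All 3 measured chains of type VI collagen fell at 24 hr. Col6a1, Col6a2 and Col6a3 encode the chains that join into 1 molecule of this filament. Col6a1 was at 4.43, 4.43 and 4.56 in controls, 3.14, 3.17 and 3.14 after KBrO3 alone and 2.37, 2.34 and 2.27 in co-exposed cells. Each group was tight and far from the others, and the differences from the controls were −1.33 ± 0.044 (Bonferroni-adjusted p = 7.05e-08, limma) and −2.15 ± 0.044 (Bonferroni-adjusted p = 2.78e-10). Col6a2 was at 2.63, 2.54 and 2.73 in controls, 0.88, 0.86 and 1.05 after KBrO3 alone and 0.042, 0.17 and −0.18 in co-exposed cells. Again no arrays overlapped, and Col6a2 fell 3.25-fold and 6.16-fold (Bonferroni-adjusted p = 4.81e-06 and 3.47e-08, limma). Col6a3, whose promoter window is printed above, was at 5.20, 5.28 and 5.18 in controls, 2.97, 3.03 and 3.10 after KBrO3 alone and 2.91, 2.83 and 2.88 in co-exposed cells. It had the largest fall of the 3 after KBrO3 alone, −2.19 ± 0.047 (Bonferroni-adjusted p = 3.78e-10, limma), and −2.35 ± 0.047 in co-exposed cells (Bonferroni-adjusted p = 1.67e-10).

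The basement membrane collagens moved less. Of the 5 tested type IV chains, 1 fell after KBrO3 alone (Col4a5) and 3 fell in co-exposed cells (Col4a1, Col4a2 and Col4a5), with class medians of −0.35 and −0.92. Col4a1 and Col4a2 encode the chains of the common type IV network. Col4a1 was at 3.13, 3.19 and 3.22 in controls, 2.79, 2.85 and 2.86 after KBrO3 alone and 2.31, 2.26 and 2.22 in co-exposed cells at 24 hr. Its groups did not overlap, with a difference of −0.35 ± 0.039 after KBrO3 alone that was under the 1.5-fold limit and a called difference of −0.92 ± 0.039 in co-exposed cells (Bonferroni-adjusted p = 1.21e-06, limma). A further Col4a1 probe differed by −0.19 there and was not called. Col4a2 was at 3.57, 3.55 and 3.71 in controls, 3.08, 3.04 and 3.10 after KBrO3 alone and 2.75, 2.79 and 2.52 in co-exposed cells. All treated arrays were below the controls, and the differences were −0.54 ± 0.068, under the 1.5-fold limit, and −0.92 ± 0.068 (Bonferroni-adjusted p = 5.35e-04, limma). Both co-exposed calls were lost with median scaling (Bonferroni-adjusted p = 0.267 for Col4a1 and 0.524 for Col4a2). Col4a5, a chain of the specialised network of kidney and smooth muscle basement membranes, changed by −1.72 ± 0.093 and −2.10 ± 0.093 on the log2 scale (Bonferroni-adjusted p = 1.62e-05 and 1.65e-06, limma).

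In the other classes the calls were few. Col8a2, a chain of the short-chain collagen of corneal and vascular membranes, was at 1.49, 1.38 and 1.38 in controls, −1.0, −0.99 and −0.95 after KBrO3 alone and −1.37, −1.35 and −1.29 in co-exposed cells at 24 hr. The treated arrays were far below the controls, by 5.26-fold and 6.72-fold (Bonferroni-adjusted p = 5.23e-11 and 1.06e-11, limma), whereas its partner chain Col8a1 differed by −0.15 ± 0.067 and −0.15 ± 0.067 and was not called. Of 6 tested FACIT genes, Col16a1 fell in both treatments, with differences of −1.93 ± 0.046 and −2.42 ± 0.046 (Bonferroni-adjusted p = 1.34e-09 and 9.63e-11, limma). Col12a1 fell in co-exposed cells, with a difference of −1.64 ± 0.079 (Bonferroni-adjusted p = 4.15e-06, limma), and its difference after KBrO3 alone, −0.50 ± 0.079, was under the 1.5-fold limit. None of the 3 tested transmembrane collagens, the anchoring fibril collagen Col7a1 or the multiplexin Col18a1 was called against the controls at 24 hr. Among these, Col23a1 and Col25a1 had differences of −1.72 ± 0.51 and −1.09 ± 0.16 after KBrO3 alone, from dim probes that were above background on 1 and 2 of the 3 treated arrays.

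A fall at 24 hr was also seen against the 4 hr arrays of each treatment. That comparison leaves out the controls and reuses the same 24 hr arrays. The 4 and 24 hr arrays of a treatment shared no slide, so no difference within a slide can be given. No control of this set is labelled 24 hr, so treatment and time in culture cannot be told apart here. From 4 to 24 hr after KBrO3 alone, 17 of 33 collagen genes fell and 1 rose, beside 14.8% and 12.7% of all genes. From 4 to 24 hr in co-exposed cells, 18 fell and 1 rose, beside 15.7% and 15.8% of all genes. With normexp the altered genes fell from 18 to 8 after KBrO3 alone and from 19 to 12 in co-exposed cells, and in fits of the 6 arrays compared to 8 and 11. Over all genes after KBrO3 alone, 2346 higher and 2731 lower calls became 597 and 768 with normexp and 521 and 850 with 6 arrays. In co-exposed cells 2914 and 2903 became 823 and 842 with normexp and 424 and 889 with 6 arrays. The median collagen differences were −0.99 and −1.40, beside −0.14 and −0.24 over all genes. Col27a1 had the largest change in both, with −0.27, −0.35 and −0.27 at 4 hr and −3.53, −3.38 and −3.42 at 24 hr after KBrO3 alone, a difference of −3.15 ± 0.094 (Bonferroni-adjusted p = 1.90e-08, limma). In co-exposed cells the Col27a1 difference was −4.20 ± 0.094 (Bonferroni-adjusted p = 6.90e-10), and the levels of the 2 times did not overlap in either treatment. The next largest falls were those of Col6a3 (−2.31 ± 0.047), Col2a1 (−2.25 ± 0.098) and Col5a3 (−2.14 ± 0.082) after KBrO3 alone, and of Col5a3 (−3.09 ± 0.082), Col6a2 (−2.50 ± 0.083) and Col6a3 (−2.48 ± 0.047) in co-exposed cells, all called. The gene that rose was Col17a1, a transmembrane collagen of epithelial hemidesmosomes. It was at −4.83, −5.04 and −4.60 at 4 hr and −3.71, −3.76 and −3.73 at 24 hr after KBrO3 alone, and at −5.29, −5.22 and −5.15 and −3.77, −3.69 and −3.56 in co-exposed cells. Its probe was above background on 2 and 1 of the 3 arrays at 4 hr and on all arrays at 24 hr, and the differences were 1.09 ± 0.094 and 1.54 ± 0.094 (Bonferroni-adjusted p = 0.0026 and 5.71e-05, limma).

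At 4 hr few collagen transcripts differed from the controls. After KBrO3 alone, 2 of 33 collagen genes rose and 1 fell, beside 13.8% of all genes that rose and 15.5% that fell. In co-exposed cells at 4 hr, 1 rose and 2 fell, beside 15.3% and 18% of all genes. Without Col24a1, which could only fall, 2 rose and 0 fell, and 1 rose and 1 fell, of 32 genes. Counted over any tested probe of a gene, 2 rose and 2 fell after KBrO3 alone, beside 15.9% and 17.1% of all genes, and 1 rose and 3 fell in co-exposed cells, beside 17.7% and 19.8%. The gene added in both was Col3a1, by a probe that passed on the controls only. The median differences of the collagen genes were 0.020 and 0.076, beside 0.046 and 0.051 over all genes. Type I and III chains stayed near their control levels at this time: Col1a1 was at 7.75, 7.64 and 7.76 after KBrO3 alone and 7.46, 7.48 and 7.33 in co-exposed cells. The KBrO3-only arrays lay within the range of the controls and the co-exposed arrays below it, by less than 1.5-fold. Col1a2 was at 8.56, 8.47 and 8.51 and 8.05, 8.09 and 8.0, where the co-exposed arrays were all below the controls with a difference of −0.49 ± 0.09 that was under the 1.5-fold limit. Col3a1 was at 6.95, 6.93 and 7.04 and 7.17, 7.03 and 7.06, below all controls but also within the 1.5-fold limit.

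The remaining type V and VI chains were close to the controls at 4 hr too. Col5a1 was at 5.83, 5.78 and 5.81 after KBrO3 alone and 5.54, 5.49 and 5.55 in co-exposed cells, with differences of 0.25 ± 0.084 and −0.033 ± 0.084. Col6a1 was at 4.53, 4.52 and 4.57 and 4.49, 4.58 and 4.51, Col6a2 at 2.77, 2.82 and 2.78 and 2.52, 2.54 and 2.47, and Col6a3 at 5.30, 5.35 and 5.37 and 5.38, 5.30 and 5.38. For Col5a2, Col5a3, Col6a1, Col6a2 and Col6a3, the differences from the controls at 4 hr lay between −0.13 (Col6a2, co-exposed) and 0.15 (Col6a2, KBrO3 alone) for their brightest probes, and none was called. A further Col6a2 probe, above background on all arrays, was at 2.59, 2.58 and 2.48 in controls, 2.34, 2.35 and 2.31 after KBrO3 alone and 1.80, 1.77 and 1.79 in co-exposed cells at 4 hr. Its 3 groups did not overlap, with differences of −0.22 ± 0.09 and −0.77 ± 0.09 (Bonferroni-adjusted p = 0.0724 for the second, limma). The further probe was thus lower in co-exposed cells by more than the brightest.

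By their brightest probes, the genes called at 4 hr were Col4a1, Col27a1, Col24a1 and Col17a1. Col27a1 rose in both treatments, from −1.44, −1.41 and −1.26 in controls to −0.27, −0.35 and −0.27 after KBrO3 alone and −0.38, −0.24 and −0.26 in co-exposed cells. All treated arrays were above all controls, with differences of 1.08 ± 0.094 and 1.08 ± 0.094 (Bonferroni-adjusted p = 0.00323 and 0.00314, limma). The 2 further Col27a1 probes were not called, with differences of 1.10 and 0.25 after KBrO3 alone and 0.72 and −0.68 in co-exposed cells, so the last of these has the opposite sign. Col4a1 rose after KBrO3 alone to 3.77, 3.81 and 3.79, above all controls, a difference of 0.61 ± 0.039 (Bonferroni-adjusted p = 1.21e-04, limma), and was at 3.51, 3.58 and 3.51 in co-exposed cells. A further Col4a1 probe gave 0.59 after KBrO3 alone without a call, and Col4a2 was at 4.08, 4.03 and 4.07 and 3.71, 3.80 and 3.69, a difference of 0.45 ± 0.068 and 0.12 ± 0.068 that was under the 1.5-fold limit. Col24a1 was at −6.76, −6.94 and −6.07 and −6.79, −7.21 and −7.35, above background on no treated array, so that its drop was at least 1.96-fold with KBrO3 alone and at least 2.2-fold with both agents. Col17a1 fell in co-exposed cells, from −3.99, −3.93 and −4.08 in controls to −5.29, −5.22 and −5.15, a difference of −1.22 ± 0.094 (Bonferroni-adjusted p = 8.02e-04, limma). Its probe was above background on 1 of the 3 co-exposed arrays. The 2 largest differences that were not called were those of Col20a1 (2.24 ± 0.23, Bonferroni-adjusted p = 0.0162, limma) and Col9a3 (2.01 ± 0.32) in co-exposed cells, both higher, and that of Col9a3 turned negative with normexp (−0.16). A further probe of Col8a1 was at 1.99, 2.00 and 1.82 in controls, 1.82, 1.84 and 1.86 after KBrO3 alone and 0.85, 0.75 and 0.87 in co-exposed cells, a difference of −1.11 ± 0.11 in the latter that was not called (Bonferroni-adjusted p = 0.0126, limma). The brightest Col8a1 probe differed by −0.43 there.

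Each call at 4 hr was lost under some alternative. With slide as a random block, 0 of the 33 genes were called in either treatment by limma with Bonferroni adjustment. Over all genes that block left 2598 called higher and 2851 lower after KBrO3 alone, and 1973 and 2176 in co-exposed cells. With it, 4 and 7 collagen genes were called at a Benjamini-Hochberg adjusted p below 0.05 and a fold above 1.5, and 16 and 17 had an unadjusted p below 0.05. No share of all genes is given for these last counts. Without the block the Benjamini-Hochberg rule called 3 genes higher and 2 lower after KBrO3 alone, beside 21.3% and 23% of all genes, and 5 higher and 4 lower in co-exposed cells, beside 29% and 25.5%. Leaving out any control array ended the Col27a1 call in both treatments. The Col17a1 call was lost without control replicate 1 or 2 and without co-exposed replicate 1 or 2. The KBrO3-only arrays at 4 hr shared a slide with control replicate 3. Against that control alone, Col4a1 and Col27a1 differed by 0.57 and 0.97, Col24a1 was again above background in the control only, and the median over the 33 genes was −0.018. The fibroblast markers summed to 754 to 806 after KBrO3 alone and 510 to 521 on the co-exposed 4 hr arrays, and the chondrocyte markers to 6.26 to 6.31 and 5.54 to 5.70, above their control range of 1.57 to 1.71. Their part in these results was not tested.

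Co-exposed cells were compared with KBrO3-only cells to ask what BPA added. At 4 hr none of the 33 collagen genes was called by limma with Bonferroni adjustment, beside 2.65% of all genes called higher and 2.85% called lower. An unadjusted p below 0.05 was found for 19 collagen genes, without a share of all genes to set them against. In this comparison the brightest probes of 4 genes passed the Benjamini-Hochberg rule upward (Col4a6, Col9a3, Col20a1 and Col22a1, with differences of 0.61, 1.37, 1.16 and 0.61), beside 12.1% of all genes higher and 8.91% lower. All co-exposed arrays at 4 hr lay on 1 slide and all KBrO3-only arrays at 4 hr on another, so slide and treatment cannot be told apart here, and this count became 0 with slide as a random block and 0 with normexp background correction. At 24 hr, 5 collagen genes had a lower and 1 a higher level in the co-exposed cells, beside 3.48% and 3.2% of all genes. The median difference at 24 hr was −0.39, beside −0.030 over all genes, and 25 of 33 genes lay below 0. Col12a1, a FACIT chain that sits on type I fibrils, was at −1.64, −1.57 and −1.47 in KBrO3-only and −2.53, −2.90 and −2.67 in co-exposed cells, a difference of −1.14 ± 0.079 (Bonferroni-adjusted p = 2.51e-04, limma). The type VI chains Col6a1 and Col6a2, with the levels given above, differed by −0.82 ± 0.044 (Bonferroni-adjusted p = 1.65e-05) and −0.92 ± 0.083 (Bonferroni-adjusted p = 0.00419), while Col6a3 differed by −0.16 ± 0.047 and was not called. A further Col6a2 probe differed by 0.022. At 4 hr 2 further probes passed the Benjamini-Hochberg rule downward, 1 of Col8a1 (−1.02) and 1 of Col27a1 (−0.93).

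The fibrillar chains Col27a1 and Col11a1 were also lower in co-exposed cells at 24 hr, with differences of −1.05 ± 0.094 and −0.89 ± 0.044 (Bonferroni-adjusted p = 0.00418 and 5.44e-06, limma), without overlap. Col18a1 went the other way. It encodes the multiplexin that carries the endostatin fragment, and it was at 2.40, 2.35 and 2.47 in controls, 1.60, 1.76 and 1.82 after KBrO3 alone and 2.76, 2.80 and 2.47 in co-exposed cells at 24 hr. The KBrO3-only arrays were below the controls and the co-exposed arrays at or above them, and co-exposed exceeded KBrO3-only cells by 0.95 ± 0.079 (Bonferroni-adjusted p = 0.00204, limma). A further Col18a1 probe gave 0.85 and was also called. Col1a1, Col1a2 and Col3a1 differed by −0.48 ± 0.06, −0.35 ± 0.09 and −0.52 ± 0.065 and were under the 1.5-fold limit, although a further Col1a1 probe (−0.78) and a further Col3a1 probe (−0.69) were called lower.

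None of these 6 calls was kept with median scaling, which moved the median of all genes from −0.030 to 0.14, or with normexp background correction, and each kept its direction. Under median scaling their Bonferroni-adjusted p lay between 0.0135 and 0.351. With the replicate number as a block, 3 of the 6 calls remained (Col6a1, Col11a1 and Col12a1), and the same 3 remained without KBrO3-only replicate 2 at 24 hr. On the 1 slide that held 2 arrays of each group, the differences were −1.19 for Col12a1, −0.80 for Col6a1, −0.85 for Col6a2, −1.12 for Col27a1, −0.93 for Col11a1 and 0.99 for Col18a1, and with slide as a fixed block the calls of Col6a1, Col11a1 and Col18a1 remained. The time dependence of the difference was tested with an interaction term (limma, Benjamini-Hochberg threshold 0.05): the difference between co-exposed and KBrO3-only cells was higher at 24 than at 4 hr in 5 of 33 collagen genes and lower in 17, beside 27.9% and 28% of all genes. With median scaling these counts were 6 and 9, and no share of all genes is given for that scaling. Col24a1, 1 of the genes counted as higher, was above background on no array of the 4 groups compared, so its value has no meaning here. The 4 hr part of this term has the slides confounded with the treatments as above.

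**Figure D3:**
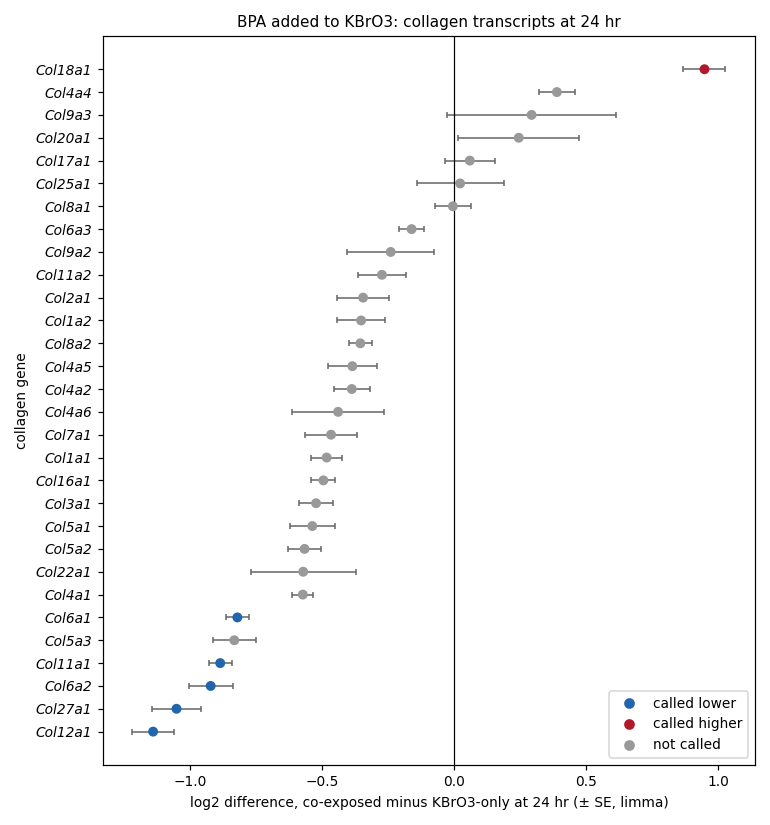
Log2 difference of co-exposed from KBrO3-only cells at 24 hr (horizontal axis, ± SE from limma, n = 3 per group) for the 30 tested collagen genes above background on at least 1 array of both groups. Of these, 5 genes called lower (blue) lie between −1.14 and −0.82, Col18a1 (red) lies at 0.95, and most uncalled genes (grey) lie below 0.

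BPA alone altered no collagen gene at the Bonferroni threshold. At 4 hr 0 of 36 tested genes were called by limma with Bonferroni adjustment, beside 0.0839% of all 21458 genes called higher and 0.00466% called lower, and at 24 hr 0 of 36, beside 0.00466% higher and 0.0186% lower. At a Benjamini-Hochberg adjusted p below 0.05 and a fold above 1.5, 1 collagen gene was higher at 4 hr, beside 2.77% of all genes higher and 1.47% lower, and 2 were lower at 24 hr, beside 1.5% higher and 2.15% lower. At an unadjusted p below 0.05 there were 3 collagen genes at 4 hr and 15 at 24 hr, the latter all lower. No share of all genes is given at that threshold, so these counts cannot be set against the array. Col20a1, a FACIT chain, was the gene at 4 hr, at −3.30, −3.09 and −3.54 in the controls of the second set and −2.40, −2.43 and −2.12 after BPA, a difference of 0.99 ± 0.21 without overlap (Benjamini-Hochberg adjusted p = 0.0308, limma). This call was lost with median scaling, normexp, no filter on dim probes, a fit of the 6 arrays, slide as a fixed block or the replicate number as a block (Benjamini-Hochberg adjusted p between 0.051 and 1.0, limma), and on leaving out any of the 6 arrays compared except control replicate 2 (between 0.068 and 0.154). At 24 hr Col20a1 was at −3.23, −3.13 and −2.82, a difference of 0.25 ± 0.21.

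Col11a1 was lower in BPA-only cells at 24 hr, at 1.65, 1.93 and 1.93 in the controls and −0.19, 0.37 and 0.081 after BPA. The arrays did not overlap, and the difference was −1.75 ± 0.21 (Benjamini-Hochberg adjusted p = 0.00459, limma). Col27a1 was at −0.72, −0.54 and −1.26 in the controls and −2.38, −2.52 and −1.85 at 24 hr, again without overlap, a difference of −1.41 ± 0.26 (Benjamini-Hochberg adjusted p = 0.0211, limma). Both calls were lost with normexp (Benjamini-Hochberg adjusted p = 0.169 for Col11a1 and 0.351 for Col27a1, limma) and with slide as a fixed block (0.0831 and 0.0917). The Col27a1 call was also lost in a fit of the 6 arrays (0.0945), with the replicate number as a block (0.0649) and without control replicate 1 or 2, BPA replicate 1 or 2 at 24 hr or BPA replicate 3 at 4 hr (between 0.0509 and 0.0769), whereas the Col11a1 call held on leaving out any array. On the 2 slides that held 1 control and 1 BPA array at 24 hr, Col11a1 differed by −2.12 and −1.56 and Col27a1 by −1.83 and −1.26, and on the slide that held 1 control and 2 BPA arrays at 4 hr Col20a1 differed by 1.04.

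The type I, III and VI chains were not called after BPA alone. Col1a1 was at 6.82, 6.36 and 6.92 in the controls, 6.65, 6.89 and 6.94 at 4 hr and 6.75, 6.74 and 6.39 at 24 hr. These groups overlapped, with Col1a1 differences of 0.13 ± 0.22 and −0.073 ± 0.22 for its brightest probe. A further Col1a1 probe, above background on all arrays, was at 4.74, 5.11 and 5.11 in the controls, 4.62, 4.16 and 4.17 at 4 hr and 3.56, 3.63 and 4.00 at 24 hr. Neither treated group overlapped the controls, and the difference of −1.26 ± 0.22 at 24 hr passed the Benjamini-Hochberg rule (adjusted p = 0.0185, limma), the only further collagen probe to do so after BPA alone, while that at 4 hr did not (−0.67 ± 0.22). The other further Col1a1 probe overlapped the controls at both times (0.38 ± 0.35 and −0.35 ± 0.35). Col1a2 was at 7.58, 7.35 and 7.72 in the controls, 7.42, 7.66 and 7.55 at 4 hr and 7.34, 6.79 and 6.84 at 24 hr. All 3 arrays at 24 hr lay below the controls, with a difference of −0.56 ± 0.21 (Benjamini-Hochberg adjusted p = 0.204, limma). Col3a1 was at 6.63, 6.24 and 6.79 in the controls, 6.40, 6.54 and 6.50 at 4 hr and 6.23, 6.47 and 6.44 at 24 hr, with overlapping groups and a difference of −0.17 ± 0.20 at 24 hr. 

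The type VI chains had lower means in BPA-only cells at 24 hr and a wide spread between arrays. Col6a1 was at 3.66, 4.72 and 4.64 in the controls and 3.17, 3.58 and 3.92 at 24 hr, a difference of −0.79 ± 0.35. Col6a2 was at 2.04, 2.49 and 2.71 and 0.61, 1.55 and 1.30, a difference of −1.26 ± 0.31 (Benjamini-Hochberg adjusted p = 0.0661, limma). Col6a3 was at 4.68, 5.25 and 4.69 and 4.04, 4.10 and 4.53, a difference of −0.65 ± 0.23. The Col6a1 groups overlapped, those of Col6a2 and Col6a3 did not, and none was called. For type V and the common type IV chains the 24 hr differences were −0.26 ± 0.20 (Col5a1), −0.45 ± 0.27 (Col5a2), −0.96 ± 0.34 (Col5a3), −0.46 ± 0.21 (Col4a1) and 0.016 ± 0.27 (Col4a2), none of them called. The median over the 36 genes was −0.19 at 4 hr and −0.49 at 24 hr, beside −0.025 and 0.0029 over all genes, and 31 of 36 lay below 0 at 24 hr. Within slides the 24 hr median was −0.65 and −0.73, and the 4 hr median −0.0095. The fibroblast markers summed to 339 to 371 in these controls, 300 to 388 at 4 hr and 258 to 320 at 24 hr, and their part was not tested.

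**Figure D4:**
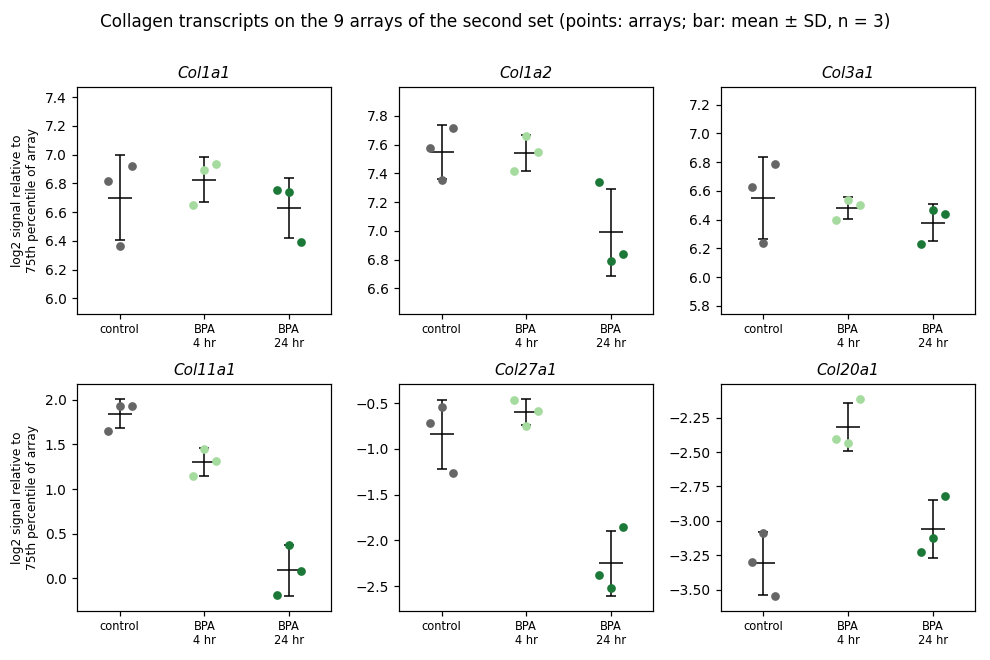
Log2 level relative to the 75th percentile of the array for 6 collagen genes in the controls and BPA-only groups of the second set (each point is 1 array; bars give mean ± SD, n = 3; each panel has its own vertical axis). Each gene is shown by its brightest probe. Col1a1 and Col3a1 overlap between groups, Col11a1 and Col27a1 are lower at 24 hr and Col20a1 is higher at 4 hr.

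Different probes of a collagen gene mostly moved together at 24 hr, with exceptions. The further probe of Col8a1 was called lower after KBrO3 alone (−1.20), and that of Col4a6 was called lower after KBrO3 alone and in co-exposed cells (−1.56 and −1.76), while the brightest probes of both genes were not. A Col3a1 probe designed on a cDNA clone was above background on all control arrays and on no treated array of the first set, and its called drop at 4 hr was at least 2.08-fold after KBrO3 alone and at least 2.34-fold in co-exposed cells, where the brightest probe differed by −0.39 and −0.28 on the log2 scale. A Col1a2 probe designed on another clone, 26846 bases away from the brightest probe by the positions in the file headers, differed by −3.71 and −3.51 at 4 hr with an SE of 0.93, was above background on 1 of the 3 arrays of each treatment and was not called. Calls counted over any tested probe of a gene gave 18 collagen genes lower after KBrO3 alone and 20 in co-exposed cells at 24 hr, beside 11.9% and 13.5% of all 18473 genes counted in the same way. Without the probes of Col3a1, Col11a1 and Col24a1 that passed on the controls only, 17 and 19 of 32 genes were lower.

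Several collagen genes lie side by side in the genome. In RefSeq, no other protein-coding gene lies between Col3a1 and Col5a2 on chromosome 1, between Col6a2 and Col6a1 on chromosome 10, between Col4a1 and Col4a2 on chromosome 8, or between Col4a6 and Col4a5 on chromosome X. The annotated starts of Col4a1 and Col4a2, which are read in opposite directions, lie 21 bases apart, and their differences were −0.35 and −0.54 after KBrO3 alone and both −0.92 in co-exposed cells at 24 hr. The type VI pair fell together, with differences of −1.70 and −1.33 after KBrO3 alone. The difference was −1.81 for Col3a1 and −0.70 for its neighbour Col5a2. Col4a5 was called lower (−1.72) and its neighbour Col4a6 was not (0.069).

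The proteins that make, trim, cross-link and bind collagen were examined next, by role. In the endoplasmic reticulum, 3 of 17 tested genes of chain modification and folding fell after KBrO3 alone at 24 hr (P4ha2, Ppib and Serpinh1) and 3 in co-exposed cells (P4ha2, P3h2 and Serpinh1), which is 17.6% in each, beside 10.7% and 12% of all genes. P4ha2 encodes a catalytic subunit of prolyl 4-hydroxylase, which stabilises the triple helix, and changed by −1.43 ± 0.038 and −1.21 ± 0.038 (Bonferroni-adjusted p = 4.75e-09 and 3.12e-08, limma). Serpinh1, the collagen chaperone HSP47, changed by −1.12 ± 0.063 and −0.99 ± 0.063. P3h2, a prolyl 3-hydroxylase, changed by −1.52 ± 0.081 in co-exposed cells, and P4ha3 was at least 3.18-fold lower there without a call (Bonferroni-adjusted p = 0.0254, limma). At 4 hr 1 gene of the list rose in each treatment, 5.88% beside 13.8% and 15.3% of all genes. It was P4hb, the disulfide isomerase subunit of prolyl 4-hydroxylase, with differences of 0.67 ± 0.062 and 0.92 ± 0.062.

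Of 6 tested genes of propeptide cleavage, 4 fell after KBrO3 alone at 24 hr and 5 in co-exposed cells, beside the same 10.7% and 12% of all genes. Adamts2, the main procollagen N-proteinase, changed by −2.18 ± 0.06 and −2.35 ± 0.06 (Bonferroni-adjusted p = 7.54e-09 and 3.10e-09, limma). The related Adamts3 changed by −2.53 ± 0.09 after KBrO3 alone and was at least 9.94-fold lower in co-exposed cells, where no array was above background. Pcolce2, an enhancer of the C-proteinase, rose at 4 hr, with differences of 1.61 ± 0.059 after KBrO3 alone and 0.70 ± 0.059 in co-exposed cells, and was lower than the controls in co-exposed cells at 24 hr (−0.80 ± 0.059, Bonferroni-adjusted p = 5.39e-04, limma). Tll1 was at least 1.15-fold lower in co-exposed cells at 24 hr and was not called. Of 5 lysyl oxidases, which start collagen cross-linking, 2 fell after KBrO3 alone and 3 in co-exposed cells at 24 hr, beside 10.7% and 12% of all genes. Loxl2 changed by −1.82 ± 0.043 and −2.68 ± 0.043, Lox by −1.0 ± 0.095 and −2.08 ± 0.095, and Loxl1 by −1.06 ± 0.049 in co-exposed cells (all Bonferroni-adjusted p at or below 0.00829, limma).

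Of 9 partners of collagen fibrils, 6 fell and 1 rose after KBrO3 alone at 24 hr, beside 10.7% and 7.09% of all genes, and 7 fell in co-exposed cells, beside 12%. Lum, Fmod and Dcn encode the small leucine-rich proteoglycans lumican, fibromodulin and decorin, which bind fibrils and shape their growth. Lum went from a mean of 5.41 in controls to 1.58 and 0.96, a difference of −3.83 ± 0.041 and −4.45 ± 0.041 (Bonferroni-adjusted p = 1.19e-13 and 2.10e-14, limma). Fmod changed by −1.72 ± 0.061 and −2.70 ± 0.061, Dcn by −2.62 ± 0.042 and −2.59 ± 0.042, and the tenascin gene Tnxb by −1.10 ± 0.083 and −2.60 ± 0.083. The gene that rose after KBrO3 alone was Thbs2 (0.82 ± 0.04), a thrombospondin. Of 6 tested collagen receptors, 2 fell after KBrO3 alone and 4 in co-exposed cells at 24 hr, beside 10.7% and 12% of all genes. Itga11 and Itga1, integrin chains that bind collagen, changed by −1.25 ± 0.054 and −1.86 ± 0.085 after KBrO3 alone and by −2.83 ± 0.054 and −2.36 ± 0.085 in co-exposed cells. Mrc2, an uptake receptor for collagen, changed by −1.08 ± 0.077 in co-exposed cells, and Ddr1, a receptor tyrosine kinase, by −1.62 ± 0.14 in co-exposed cells at 4 hr.

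Of 8 tested laminin, nidogen and perlecan genes of the basement membrane, 3 fell after KBrO3 alone and 5 in co-exposed cells at 24 hr, beside 10.7% and 12% of all genes. Nid2 changed by −1.59 ± 0.074 and −2.10 ± 0.074, Lama4 by −1.28 ± 0.04 and −1.99 ± 0.04, and Lamb1 by −1.41 ± 0.067 and −1.42 ± 0.067, while Lama2 changed by −0.83 ± 0.072 in co-exposed cells. Of 4 tested enzymes of collagen breakdown, 3 fell in each treatment at 24 hr, beside 10.7% and 12% of all genes. Mmp2, a gelatinase, changed by −1.64 ± 0.062 and −2.01 ± 0.062, and Mmp14, its membrane-bound activator, by −1.49 ± 0.12 and −1.27 ± 0.12. Mmp13, a collagenase, changed by −1.07 ± 0.081 in co-exposed cells at 24 hr, and after BPA alone it was higher by 2.67 ± 0.22 at 4 hr and 2.52 ± 0.22 at 24 hr (Benjamini-Hochberg adjusted p = 5.54e-04 and 0.00218, limma), which passed no Bonferroni threshold. With median scaling the counts of lower genes in co-exposed cells at 24 hr were 2 of 17 for modification and folding, 2 of 6 for propeptide cleavage, 2 of 5 for cross-linking, 6 of 9 for fibril partners, 2 of 6 for receptors, 3 of 8 for basement membrane partners and 1 of 4 for breakdown. Over all genes median scaling left 1187 called lower in these cells, beside 2218 without it.

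**Figure D5:**
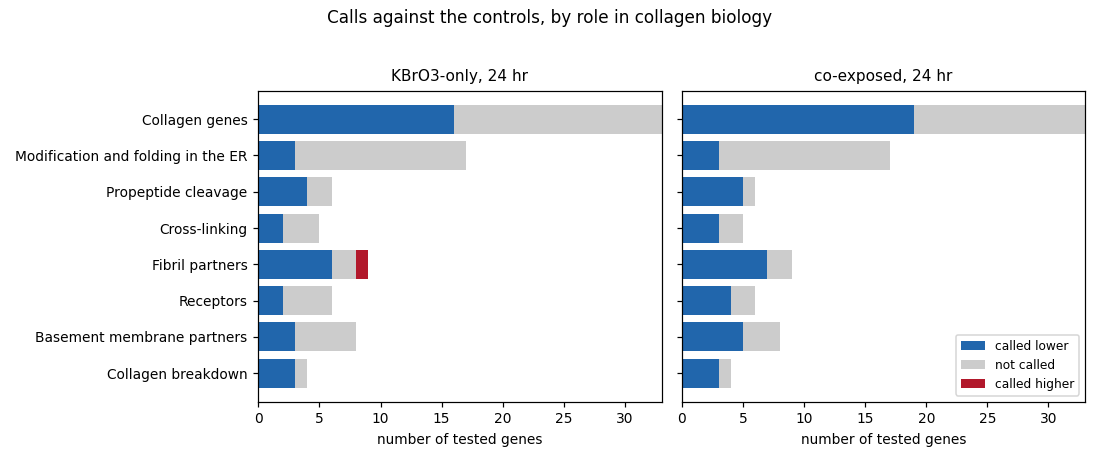
Number of tested genes called lower (blue), not called (grey) and called higher (red) against the controls at 24 hr, for the collagen genes and 7 lists of genes by role, after KBrO3 alone (left) and in co-exposed cells (right). The bars of the collagen genes hold 16 and 19 lower genes of 33, and the only red segment is that of Thbs2 among the fibril partners after KBrO3 alone.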

How the data were processed

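RNA of 24 samples was hybridized, 1 sample per Agilent 4x44K mouse array, with Cy3 label. The deposited intensity values (gProcessedSignal) were background-subtracted by the authors' scanner software, Agilent Feature Extraction, version 12.0 in the submitters' processing notes, 9.5.3.1 (first set) and 12.0.0.7 (second set) per the file headers. The authors' table of the series equalled these signals in 1041096 of 1041096 values, within a relative tolerance of 1e-06. The study's methods count the labelled times from the start of KBrO3, and give BPA-only exposures 1 hr longer than the labels used here.

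Replicate spots of a probe were averaged, log2 signals were taken relative to the 75th percentile of each array, and each set was fitted on its own with limma 3.58.1 in R 4.3.3 (lmFit, eBayes, all groups of the set, no covariates). Tables were made with Python 3.11.15, pandas 2.3.3 and numpy 2.4.6. A probe entered the test where some group had it well above background on all its arrays (18445 and 21458 genes, 1 probe per gene). Calls needed a fold above 1.5 and a p below 0.01 after Bonferroni adjustment. Scripts were tested on simulated data. The study's methods call the samples of a group biological replicates. All come from 1 cell line, so p-values measure the spread between samples of that line. The number of arrays limits the precision.

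The collagen genes and the lists by role were chosen with earlier results of these data known. Per-array values are given for chains of types I, III, V and VI, for Col4a1 and Col4a2, and for up to 4 called genes with the largest rise and fall in each comparison. In each list by role, up to 4 members with the largest change are named. Probe names were matched to RefSeq by accession (57 probes) or symbol (21 probes). Alternatives were quantile normalization, median scaling, normexp background correction (offset 50), other filters, fits of the 6 arrays compared, slide or replicate number as a block, another call rule and leaving out each array. For the second set normexp used the median spot signal.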

Additional observations from a re-analysis of the deposited data

Results flagged for a closer look

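The difference between co-exposed and KBrO3-only cells was compared between the 2 times with an interaction term in limma. At a Benjamini-Hochberg adjusted p below 0.05, 5 of 33 collagen genes had a higher and 17 a lower difference at 24 than at 4 hr, beside 27.9% and 28% of all genes. Of these, 12 (1 higher and 11 lower) exceeded the 1.5-fold limit in genes that were above background on at least 1 array of each of the 4 groups, and the values that follow are the log2 difference at 24 hr minus that at 4 hr. The shares of all genes above apply to the adjusted p alone. None is given with the fold limit, so the counts below cannot be set against the array. Among the 11 fibrillar genes, 5 passed in the lower direction. Their value was −1.05 for Col27a1, −0.94 for Col5a3, −0.76 for Col11a1, −0.70 for Col5a2 and −0.63 for Col3a1, while Col1a1 (−0.19), Col1a2 (0.11), Col2a1 (0.20), Col5a1 (−0.26) and Col11a2 (−0.14) did not pass. Of the type VI chains, Col6a1 had −0.81 and Col6a2 −0.64, but a further Col6a2 probe had 0.57 ± 0.13 (Benjamini-Hochberg adjusted p = 0.00282, limma), of the opposite sign. Col6a3 passed the adjusted p but not the fold limit (−0.18), and its sign turned with median scaling (0.14). The FACIT chains Col12a1, Col22a1 and Col20a1 had values of −1.31, −1.19 and −0.92, and the type IV chain Col4a6 had −1.04. Col18a1, the multiplexin, moved the other way with 0.71. No value is given for Col24a1, which was above background on no array of the 4 groups, or for Col28a1, which was above background on no array of KBrO3-only cells at 4 hr or co-exposed cells at 24 hr. These values are those of the brightest probes. Of the further probes of the 12 genes, that of Col6a2 was the only one of opposite sign, and those above background in each group were smaller for Col4a6 (−0.24) and Col27a1 (−0.18), which did not pass, and for Col3a1 (−0.44) and Col18a1 (0.50), which did. A further Col8a1 probe had 1.43 ± 0.16 (Benjamini-Hochberg adjusted p = 2.19e-05, limma), where the brightest had 0.38. Each of the 12 kept its direction under the 3 other scalings tried. With median scaling Col3a1, Col6a2 and Col20a1 no longer passed the adjusted p (0.0694, 0.0894 and 0.125), with quantile normalization Col20a1 did not (0.0648), and with normexp only Col11a1, Col12a1, Col5a3 and Col6a1 of the 12 passed, with Col22a1 at −0.41 and Col27a1 at −0.40. With median scaling the counts were 6 higher and 9 lower, without a share of all genes for that scaling, and at 4 hr slide and treatment cannot be told apart.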

How the results depend on the processing

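After KBrO3 alone the count of 16 altered collagen genes at 24 hr became 6 with normexp background correction and 7 in a fit of the 6 arrays compared, and 15 to 16 on leaving out 1 array. In co-exposed cells at 24 hr, 19 became 12 with normexp and 10 with 6 arrays, and stayed at 19 on leaving out any array. Over all genes, 1975 lower calls after KBrO3 alone became 536 with normexp and 393 with 6 arrays. In co-exposed cells 2218 became 696 and 534. From 4 to 24 hr, 18 (KBrO3 alone) became 8 with normexp and 8 with 6 arrays, with 16 to 19 on leaving out 1 array, and 19 (co-exposed) became 12 and 11, with 18 to 21. The calls over all genes dropped in these settings too, as given above. At 4 hr, 3 after KBrO3 alone became 1 with quantile normalization, 1 with median scaling, 0 with normexp, 1 when probes had to be above background on every array, 0 with 6 arrays, 0 with slide as a random and 0 as a fixed block, and 5 with the Benjamini-Hochberg rule, with 1 to 3 on leaving out 1 array. Over all genes, 2543 higher and 2862 lower calls became 2598 and 2851 with the random block and 2004 and 1981 with the fixed block. Col4a1 differed by 0.61 in the main fit and, against the control on its own slide, by 0.57, under the 1.5-fold limit. The 3 calls in co-exposed cells at 4 hr became 0 with normexp, 1 with the stricter filter, 0 with 6 arrays, 0 with slide as a random block and 9 with the Benjamini-Hochberg rule, with 1 to 4 on leaving out 1 array. Over all genes, 2818 higher and 3319 lower calls became 1973 and 2176 with the random block. Between co-exposed and KBrO3-only cells the Benjamini-Hochberg rule made 0 calls at 4 hr into 4, and the 6 calls at 24 hr became 0 with median scaling, 0 with normexp, 0 with 6 arrays and 3 with slide as a fixed block, with 3 to 6 on leaving out 1 array. Over all genes, 590 higher and 641 lower calls at 24 hr became 501 and 276 with median scaling. They became 67 and 77 with normexp and 13 and 24 with 6 arrays. For BPA alone the Benjamini-Hochberg rule made 0 into 1 at 4 hr and 0 into 2 at 24 hr. The interaction count of 22 (5 higher, 17 lower) became 15 with median scaling (6 higher, 9 lower) and 5 with normexp (1 higher, 4 lower), and no shares of all genes are given for these settings. Median scaling turned the sign of 7 of these 33 values, among them Col6a3 (from −0.18 to 0.14), and quantile normalization that of Col1a2. The cause was not tested, beyond the smaller number of arrays in the fits of 6.

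Same-numbered arrays did not deviate together (mean r −0.029 in the first set, 0.0022 in the second), so the numbers are not taken to pair samples. With the replicate number as a block, the counts were 1 and 3 at 4 hr, 15 and 19 at 24 hr, 16 and 19 from 4 to 24 hr, and 3 between co-exposed and KBrO3-only cells at 24 hr.

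Median scaling turned the split of all genes called in co-exposed cells at 24 hr from 1750 higher and 2218 lower to 2366 and 1187, and from 1307 and 1975 to 1211 and 1134 after KBrO3 alone, from 2914 and 2903 to 4076 and 1230 for co-exposed cells from 4 to 24 hr, and from 590 and 641 to 501 and 276 for co-exposed against KBrO3-only cells at 24 hr. The collagen median at 24 hr stayed below 0 under every scaling tried, between −1.12 and −0.66 after KBrO3 alone and between −1.64 and −1.33 in co-exposed cells. Normexp also moved the median of all genes, to −0.44 and −0.43, and the collagen median minus that of all genes was −0.68 and −1.02 there, beside −1.02 and −1.54 without it. Among 123 differences of single genes followed through the alternatives no Bonferroni call changed sign: 2659 values stayed on their side of the threshold, 265 lost a call, 19 gained one, and 7 values of genes without such a call changed sign. Of the values that stayed, 123 came from the deposited series values, which equal the signals used, so they could not change. Dim probes set the limit for Col24a1, Col28a1 and Col23a1.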
